A study of Mus musculus with 6 samples.

Results

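Gene expression was compared between sorted mammary cells labelled TEB-distal Gpr125+ and sorted cells labelled Gpr125-negative, by RNA-seq of 2 libraries each. These 4 libraries were taken by their sample titles from the 6 of the series. The other 2, of nipple-proximal Gpr125+ cells, were left out. Gpr125 is the protein of Adgra3, an orphan adhesion receptor. All groups came from pubertal Adgra3-lz/+ females, 6 weeks old, in which the lacZ cassette took the place of part of one Adgra3 allele and gave a Gpr125-β-galactosidase fusion protein. The glands were cut at the lymph node into a part distal to the nipple and a part next to it, and the cells were digested for hours before sorting. Cells positive for CD31 (endothelial cells), CD45 (leukocytes) or Ter119 (red cells) were gated out. An antibody to CD140a, the fibroblast receptor encoded by Pdgfra, carried the same biotin label in the methods, while the series' design text does not name it for this gate. The remaining cells were sorted for high CD49f, the α6 integrin of basal mammary cells, and for FDG, a substrate that turns fluorescent where β-galactosidase cuts it. FDG+ CD49f hi cells of the distal part made up the TEB-distal Gpr125+ group. FDG-negative CD49f hi cells made up the Gpr125-negative group, whose titles name no region while the design text names both parts as the source of the sorted cells, so that reporter status and gland region cannot be told apart here. Each library was made from the abdominal glands of 5 mice, pooled, per the series' design text, so a replicate is a pool and the error is the spread between 2 pools.

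The mammary duct is a bilayer. Luminal cells line the lumen and carry keratins 8 and 18, while basal cells rest on the basement membrane, carry keratins 5 and 14 and p63, and contract through smooth muscle actin and myosin when milk is let down. During puberty the duct elongates through terminal end buds (TEBs), bulbs at the ductal tip whose outer layer of cap cells gives rise to basal cells and moves forward through a basement membrane that is being rebuilt. The blood and lymph vessels of the fat pad lie outside that bilayer, and their cells carry CD31, the angiopoietin receptor Tek and its relative Tie1.

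Total counts were 37296640 and 33300561 in the libraries labelled Gpr125-negative (replicates 1 and 2, the order kept below) and 24438147 and 29279042 in those labelled TEB-distal. Values are given as counts or as CPM, the count scaled to the normalized library size, and 3 counts, the floor used here, were worth 0.0674 to 0.122 CPM. Reads carried no molecular identifiers, so floors and intervals cover counting error only. Replicates differed widely: log2 CPM of the tested genes correlated at 0.708 between both libraries labelled negative and at 0.782 between those labelled TEB-distal, beside 0.733 to 0.773 for pairs across the groups, as a description over genes. The biological coefficient of variation estimated by edgeR was 1.08. The share of counts from mitochondrially encoded genes was 0.301% and 2.83% in the libraries labelled negative and 3.15% and 0.761% in those labelled TEB-distal, and did not follow the groups.

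Adgra3 itself went against the labels. The gene (chr5:49959956-50059006, GRCm38, GENCODE M21, as for all positions of genes given) had 1658 and 550 counts in the libraries labelled negative and 385 and 142 in those labelled TEB-distal, which is 28.3 ± 12.7 against 10.3 ± 7.49 CPM (SD, n = 2 each). Both libraries labelled Gpr125+ therefore lay below both labelled Gpr125-negative, with a log2 difference of -1.45 (SE 1.18), and the difference did not pass edgeR's quasi-likelihood test (Benjamini-Hochberg adjusted p = 1.00). All groups carry the lacZ allele, and counts summed over the gene do not separate its transcript from that of the intact allele, while the sort read enzyme activity. Since the targeted gene's transcript runs against the label, groups are called below by what they are labelled, and every direction is that of the libraries so labelled.

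Of the genes behind the sorting antibodies, Pecam1 stood furthest apart between the groups. Itga6, which encodes CD49f, had 65.5 and 90.2 CPM in the libraries labelled negative and 199 and 91.4 CPM in those labelled TEB-distal. Itgb1, its partner chain, had 309 and 908 against 899 and 549.6 CPM, and the groups overlapped. Pecam1, which encodes CD31, was at 45.3 and 58.3 CPM in the libraries labelled negative and at 2.56 and 5.6 CPM in those labelled TEB-distal, although CD31+ cells had been gated out of every sample. Ptprc, which encodes CD45, was low in all 4 libraries, between 2.07 and 9.62 CPM. Cd24a, higher on luminal than on basal cells, spread from 77.9 to 651 CPM with both extremes in replicate 2 of the groups. Pdgfra, which encodes CD140a, had 2.76 and 0.0351 against 7.02 and 4.29 CPM, and exons of other transcripts overlap it.

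Of 55291 listed symbols, 16161 had enough counts to be tested. None passed edgeR's quasi-likelihood test at an adjusted p under 0.1 and a 2-fold difference (0% called), where the smallest adjusted p was 0.202, and 641 genes (3.97%) had an unadjusted p under 0.05, 422 higher (2.61%) and 219 lower (1.36%) in the libraries labelled TEB-distal. DESeq2, run on the same 4 libraries at the same thresholds, called 667 of 16659 genes (4%), 389 higher and 278 lower. Among the genes that edgeR tested its calls were 307 higher (1.9%) and 182 lower (1.13%). With the groups fully apart as the measure, 1852 of the tested genes (11.5%) had both libraries labelled TEB-distal above both labelled negative with at least a 2-fold difference, and 1215 (7.52%) had them below. In the counts of gene lists below, higher and lower mean this. The lists and their members were chosen with earlier results of these data known, so their shares describe the lists and test nothing. The count of calls rested on single libraries: edgeR called 547 genes without replicate 1 of the libraries labelled negative and 50 without its replicate 2, and 0 without either library labelled TEB-distal. With 2 libraries a group, an exact permutation test of a single gene cannot give a two-sided p below 0.333. Any gene whose groups are fully apart reaches that p, so being apart does not by itself tell a difference from chance. Values below therefore give "higher" and "lower" as the order of the libraries, and DESeq2 calls are named as such. Both tools were also run on simulated counts that gave every gene the same dispersion and changed only a small part of the genes. There, most genes that DESeq2 called had not been changed, and edgeR called none of the changed ones. Variability that differs between genes was not simulated, so the share of false calls in these libraries cannot be read from it.

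The strongest differences were of genes low in the libraries labelled TEB-distal. Among the 10 genes with the smallest p, 10 were lower there, and among the first 50, 40 were lower and 10 higher. Further down the order turned, with 335 of the first 500 higher. In the plot of all tested genes, the lower genes accordingly reach further up and the higher genes are more numerous.

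**Figure D1:**
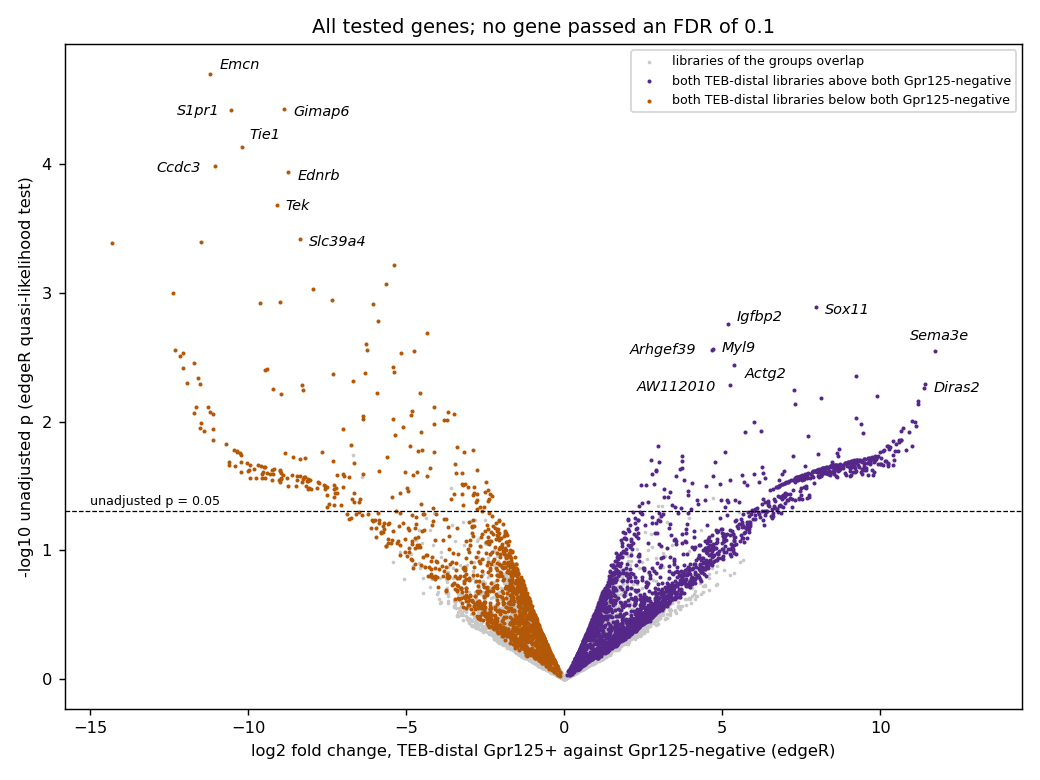
Each point is 1 of the 16161 tested genes, with the log2 fold change of the libraries labelled TEB-distal Gpr125+ against those labelled Gpr125-negative on the x axis and -log10 of the unadjusted edgeR p on the y axis; purple and orange mark genes whose libraries do not overlap. Emcn, S1pr1 and Gimap6 stand highest on the left and Sox11 on the right, and no gene passed after adjustment.

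Most genes that led the lower side are known from blood and lymph vessels. Emcn (chr3:137341067-137432185) encodes endomucin, a sialoglycoprotein of capillary and venous endothelium. It had 11970 and 13276 counts in the libraries labelled negative and 5 and 3 in those labelled TEB-distal, or 368 ± 139.5 against 0.155 ± 0.0683 CPM (SD, n = 2 each). The log2 difference was -11.19 (SE 1.48, edgeR quasi-likelihood adjusted p = 0.202, DESeq2 adjusted p = 2.83e-15). Gimap6, a GTPase of the immunity-associated family, had 6671 and 2758 against 6 and 8 counts. For both genes the replicates of each group lay close together compared with the distance between the groups.

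Receptors of vessel growth and tone followed the same order. Tek is the angiopoietin receptor and Tie1 its relative. Tie1 had 1523 and 1806 counts in the libraries labelled negative and 1 in each labelled TEB-distal, a pooled ratio of 1210 with a 95% counting interval from 333 to 9960. Tek had 3628 and 828 against 4 and 1 counts. S1pr1, the sphingosine-1-phosphate receptor that steadies endothelial junctions, had 2076 and 2208 against 1 in each, a ratio of 1550 (429 to 12800). Ednrb, the type B endothelin receptor, had 149.9 and 194 CPM against 0.122 and 0.674 CPM. All 4 receptors were called lower by DESeq2, and each had at most 3 counts in at least 1 library labelled TEB-distal.

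Enzymes, junction and secreted proteins of endothelium completed the ranking. Nos3, endothelial nitric oxide synthase, had 1266 and 384 counts in the libraries labelled negative and 0 in both labelled TEB-distal, at least 184-fold lower against 3 counts per library. Cldn5, the claudin of endothelial tight junctions, was at 230.5 and 48.4 against 0.122 and 1.6 CPM. Plvap, which forms the diaphragms of fenestrae, was at 84.8 and 146 against 2.15 and 3.37 CPM, so that it stayed measurable in every library. Mmrn1, multimerin 1 of endothelium and platelets, and Nts, neurotensin, were unequal between the replicates, with 282 and 3589 counts of Mmrn1 and 288 and 4352 of Nts in the libraries labelled negative, and 1 count of Mmrn1 and 0 of Nts in those labelled TEB-distal together. Nts was at least 699-fold lower against the floor, and 1 library supplied most of it.

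Other lower genes were Fabp4, Ctla2a, Slc39a4 and Ccdc3. Fabp4, a fatty acid carrier of adipocytes and of capillary endothelium, was at 702 and 654 against 9.25 and 18.1 CPM (log2 difference -5.63, SE 1.20). Ctla2a, an inhibitor of cysteine proteases, had 58.8 and 922 against 2.64 and 1.35 CPM, and Slc39a4, a zinc importer, 165 and 30.5 against 0.0812 and 0.496 CPM. Both varied several times over between the replicates labelled negative while staying apart from the other group. Ccdc3 had 1660 and 1762 counts against 1 and 0. Counting took no account of strand, and exons of other transcripts overlap Ccdc3, Ctla2a and Nos3, so a part of their reads may belong to those transcripts.

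Lower in this way were 11 of 14 tested endothelial markers (78.6%, beside 7.52% of all tested genes), and none was higher. Their median log2 difference was -5.37, beside 0.02 for all tested genes, and stayed between -5.97 and -4.72 with any 1 library left out. DESeq2 called 10 of them lower, beside 1.13% of all tested genes. Summed over the list, endothelial markers reached 1546 and 1067 CPM in the libraries labelled negative and 25.7 and 28.2 CPM in those labelled TEB-distal. Cdh5, VE-cadherin, was at 144 and 61.5 against 4.99 and 0.0355 CPM. The markers outside the 11 were Kdr (0.337 and 14.3 against 4.42 and 0.213 CPM), Flt1 (4.09 and 2.6 against 2.19 and 3.12 CPM) and Vwf (8.32 and 0 against 0.325 and 0.319 CPM), which are the VEGF receptors and von Willebrand factor, and their libraries overlapped. In bulk samples, fewer cells of a type and less RNA per cell cannot be told apart. The part of these markers in the other differences was not tested.

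**Figure D2:**
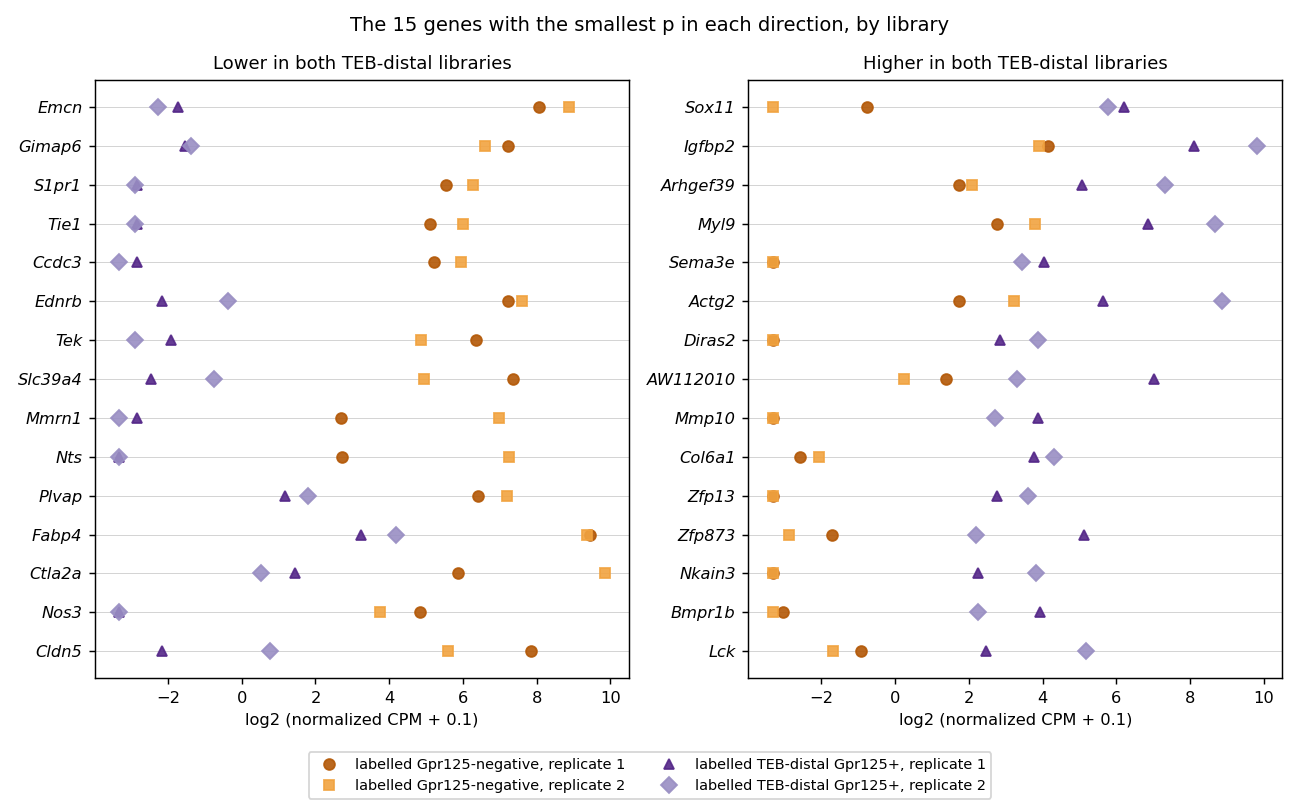
For the 15 genes of smallest p in each direction, each library's log2 (normalized CPM + 0.1) is shown, with orange symbols for the libraries labelled Gpr125-negative and purple symbols for those labelled TEB-distal Gpr125+. Most lower genes drop to the left edge, near 0 CPM, in both libraries labelled TEB-distal, while Igfbp2, Arhgef39, Myl9 and Actg2 were measurable in all 4.

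Markers of other cell types were read in the same way, among them the leukocytes and red cells that had been gated out and the fibroblasts that carry CD140a. Of all tested genes 11.5% were higher and 7.52% lower, the shares to set the counts beside. In the plot of summed marker levels, only the endothelial and adipocyte lists separated the groups downward by more than the spread between replicates. The adipocyte list rested on Fabp4: 3 of 8 members were tested, 1 was lower, the median was -0.64 (-1.56 to -0.11 with any 1 library left out), and the defining markers Plin1 and Adipoq had at most 15 counts in any library. The 6 tested Schwann cell markers had a median of -0.85, and their summed levels overlapped between the groups. Of 5 tested pericyte markers 1 was lower (median 1.11, but -0.15 with DESeq2 and -0.05 when genes with at least 1 count were kept) and none higher, and summed levels were 12.3 and 62.5 against 15.3 and 41.9 CPM. Rgs5, a defining pericyte marker, had 545 counts in replicate 2 of the libraries labelled negative and 0 in the other 3. Of 10 tested fibroblast markers 4 were higher (40%), at summed levels of 55 and 170 against 101 and 209 CPM. Their median was 1.81, but -0.11 without replicate 2 of the libraries labelled TEB-distal. The 4 higher members, Pdgfra, Col1a1, Col1a2 and Col3a1, are also in the sorting or collagen lists. Leukocyte markers were 3 higher and 1 lower of 8 tested (37.5% and 12.5%, median 0.85). Their sum, 84.4 and 78.5 against 153 and 321 CPM, was mostly Cd68, at 74.3 and 44.9 against 124 and 302 CPM. Cd68 is a lysosomal protein also present in other cells, and the source of its reads was not tested. The T cell marker Cd3e had 2 to 6 counts per library. No erythroid marker was tested, and their sum was 0.0812 to 1.37 CPM.

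**Figure D3:**
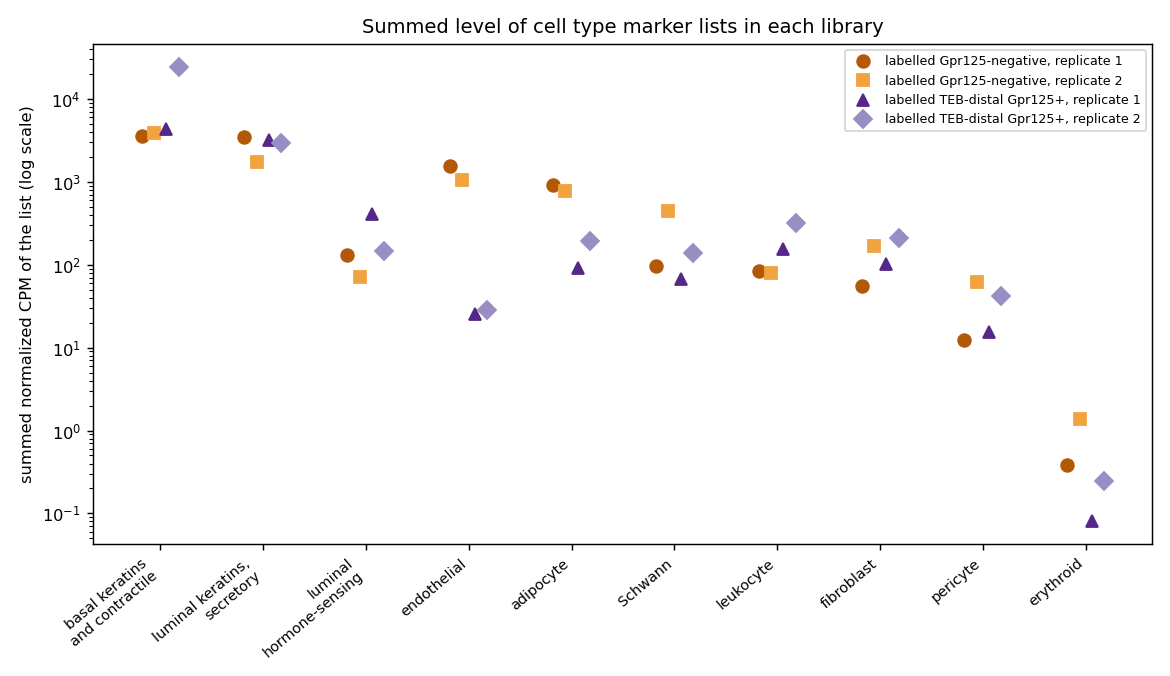
Summed normalized CPM of each cell type's marker list (log scale) is shown for the 4 libraries, with orange for the libraries labelled Gpr125-negative and purple for those labelled TEB-distal Gpr125+. Endothelial markers reached 1546 and 1067 CPM in the former and 25.7 and 28.2 CPM in the latter; the basal list stands apart in replicate 2 of the latter, at 24490 CPM.

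Some genes were near absent from 1 group. Of 55291 symbols, 51 had at least 100 counts in both libraries of a group and at most 3 in each library of the other. Of these genes, 18 were present in the libraries labelled TEB-distal and 33 in those labelled negative. DESeq2 called all 51, beside 4% of all genes with an adjusted p. The genes were picked by the same counts, so these calls add no support. Against 3 counts per library the differences were 47.4 to 158 times for the first 18 and 28.5 to 699 times for the other 33. Vessel genes were again among the second kind. Prox1 (chr1:190118035-190170714), the transcription factor of lymphatic endothelium, had 541 and 699 counts against 0 and 3, a pooled ratio of 299 (102 to 1450, counting interval). Stc1, the secreted glycoprotein stanniocalcin 1, had 834 and 1177 against 0 and 3 counts. Exons of other transcripts overlap both genes.

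Genes near absent from the libraries labelled negative included ligands, receptors and a protease. Sema3e (chr5:14025276-14256689), a secreted semaphorin that signals through plexin D1, had 0 counts in both libraries labelled negative and 405 and 306 in those labelled TEB-distal, at least 158-fold higher against the floor. Mmp10, the matrix protease stromelysin 2, had 0 against 361 and 183 counts, at least 122-fold. Bmpr1b, a type I BMP receptor, had 1 and 0 against 374 and 131 counts, a ratio of 697 (125 to 27600). Diras2, a Ras-like GTPase, Nkain3, which interacts with the sodium pump, and the zinc finger gene Zfp13 were at 0 in both libraries labelled negative as well, with 115 to 409 counts in those labelled TEB-distal. Prss35, a protease-like protein, had 0 and 2 against 282 and 225 counts, and Tmeff2, a transmembrane protein with follistatin-like domains, 0 and 3 against 261 and 200. Their ratios were 350 (96.4 to 2900) and 212 (72.1 to 1030). The mean levels of these 8 genes in the libraries labelled TEB-distal were 8.84 to 13.6 CPM.

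Sox11 had the smallest p of the genes higher in the libraries labelled TEB-distal. The gene (chr12:27334264-27342574) encodes a SoxC transcription factor of embryonic progenitors. Counts were 22 and 0 in the libraries labelled negative and 1824 and 1552 in those labelled TEB-distal, or 0.247 ± 0.35 against 64.5 ± 13.4 CPM (SD, n = 2 each). The log2 difference was 7.96 (SE 1.78, edgeR quasi-likelihood adjusted p = 0.99985, DESeq2 adjusted p = 0.000112). Without replicate 1 of the libraries labelled negative, the lone library with 0 counts gave 13.77, a value that depends on the prior count, and without replicate 2 the difference was 7.02. With every library kept, only DESeq2 and 3 alternative edgeR settings made calls, while the main fit and the other settings called no gene. Sox11 was the 1 higher gene among the 10 called by all of those that made calls. The others were Ccdc3, Ednrb, Emcn, Gimap6, Mmrn1, Nts, S1pr1, Tek and Tie1. These 10 were all the calls of the setting with a replicate block. Igfbp2 (chr1:72824503-72852474), which binds insulin-like growth factors, was at 17.8 and 14.9 against 276 and 902 CPM (log2 difference 5.17, SE 1.22), and its replicates lay closer together on the log scale than the groups. Arhgef39, an exchange factor of small GTPases, was at 3.24 and 4.11 against 33.4 and 160.3 CPM. In replicate 1 labelled TEB-distal, both were nearer to the other group than in replicate 2.

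The remaining higher genes had mixed roles. AW112010, an interferon-induced transcript, was at 2.52 and 1.09 against 129 and 9.75 CPM, most of it in replicate 1. Zfp873, a zinc finger gene, was likewise highest in replicate 1, with 9 and 1 against 859 and 125 counts. Lck, a Src-family kinase of T cells, had 19 and 6 against 133 and 1018 counts and was highest in replicate 2. The T cell marker Cd3e was near absent in the same library, as given above. The source of the Lck reads was not tested.

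Contractile genes of myoepithelium were mostly higher. Of 15 tested basal keratins and contractile genes, 7 were higher and 1 lower (46.7% and 6.67%, beside 11.5% and 7.52% of all tested genes). The median log2 difference was 2.20, and 0.85 without replicate 2 of the libraries labelled TEB-distal. DESeq2 called 2 higher and 1 lower, beside 1.9% and 1.13% of all tested genes. Myl9, the regulatory light chain of smooth muscle myosin, was at 6.65 and 13.8 against 115 and 409 CPM (log2 difference 4.68, SE 1.18). Actg2, smooth muscle γ-actin, was at 3.24 and 9.27 against 49.5 and 471 CPM (log2 difference 5.38, SE 1.41). Both were called by DESeq2, and in both the 2 groups were apart. Without replicate 2 of the libraries labelled TEB-distal, the log2 difference was 3.50 for Myl9 and 2.98 for Actg2. Acta2, smooth muscle α-actin, was at 198 and 530.1 against 1496 and 8088 CPM and was not called by DESeq2 (adjusted p = 0.113). Myh11, smooth muscle myosin heavy chain, was at 65.4 and 148 against 227 and 755 CPM. Summed over the list, the libraries labelled negative reached 3604 and 3843 CPM and those labelled TEB-distal 4361 and 24490 CPM, so that replicate 1 labelled TEB-distal was close to the other group and replicate 2 was far above it.

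The keratins of the list were not in that order. Krt14 was at 1556 and 1238 against 839.7 and 4891 CPM and Krt5 at 876 and 223 against 236 and 797 CPM. In both, the libraries of the groups overlapped. Des, desmin of muscle and pericytes, was the 1 lower member, with 128 and 103 counts in the libraries labelled negative and 0 in both labelled TEB-distal, at least 28.5-fold lower against 3 counts per library.

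Promoter windows of the list of basal keratins and contractile genes were read for the CArG box. It is the binding motif of serum response factor, known to drive smooth muscle genes. Windows ran from 250 bases before to 50 after the RefSeq start site (GRCm38.p6), and 11 of them belonged to members of the list. On either strand, 1 of the 11 windows (9.09%) held the strict motif with no letter off, beside 535 of 32851 windows of all genes (1.63%). The window was that of Myl9, where the first base of the motif lies 161 bases before the start. With at most 1 letter off, a looser search added after the data were seen, 3 of the 11 (27.3%) held it, beside 6936 of all windows (21.1%). The 250 bases before the start of Myl9 are shown, 5′ to 3′ on the gene's strand with the strict CArG box in capitals, beside those of Acta2, which encodes the smooth muscle actin used to stain basal cells. Beside its strict box, Myl9 held a box that is 1 letter off, whose first base lies 99 bases before the start. Acta2 held 2 boxes that are 1 letter off, whose first bases lie 84 and 34 bases before the start, and no strict one. A match is a description of the letters only. The Myl9 window is chr2:156775214-156775463 on the plus strand and the Acta2 window chr19:34255374-34255623 on the minus strand.
Myl9: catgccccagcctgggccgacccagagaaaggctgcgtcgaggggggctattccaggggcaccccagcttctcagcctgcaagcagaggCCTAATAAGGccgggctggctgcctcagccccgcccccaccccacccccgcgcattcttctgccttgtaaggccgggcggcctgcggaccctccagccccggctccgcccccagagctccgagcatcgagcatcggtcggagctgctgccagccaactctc
Acta2: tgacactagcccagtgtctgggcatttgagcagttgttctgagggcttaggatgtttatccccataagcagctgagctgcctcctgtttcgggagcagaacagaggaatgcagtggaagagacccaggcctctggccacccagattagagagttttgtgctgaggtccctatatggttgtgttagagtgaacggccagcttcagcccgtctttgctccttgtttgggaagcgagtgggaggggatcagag

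Basal transcription factors and stem cell genes had no common direction. Of 15 tested, 1 was higher and 2 lower (6.67% and 13.3%, beside 11.5% and 7.52% of all tested genes, median -0.50). The higher one was Sox11. Trp63, which encodes p63, was at 60.7 and 8.71 CPM in the libraries labelled negative and 7.63 and 6.74 CPM in those labelled TEB-distal. Replicate 1 labelled negative held most of it, and replicate 2 lay close to the other group. Procr, the protein C receptor of a basal stem cell population and also of endothelium, was at 2581 and 2004 against 663 and 669 CPM, a log2 difference of -1.78 (SE 1.09). Its replicates lay close together in the libraries labelled TEB-distal. Neither gene was called by DESeq2.

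Matrix genes were higher in several families. Of 12 tested fibrillar and associated collagens 7 were higher and none lower (58.3% higher, median 1.54). Of 20 tested basement membrane genes 9 were higher and none lower (45%, median 1.35), and of 17 fibronectin, fibulin and matricellular genes 7 were higher and 1 lower (41.2%, median 1.04). The shares for all tested genes were 11.5% and 7.52%. The medians stayed between 1.30 and 2.18, 1.07 and 1.52, and 0.69 and 2.31 with any 1 library left out. Among the genes tested by edgeR, DESeq2 called 1 member of the 3 lists higher, Col6a1, beside 1.9% of all tested genes. It also called Thbs2, which edgeR's filter left out and which had 311 counts in replicate 1 labelled TEB-distal and 0 in the other libraries.

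Col6a1, a chain of the beaded microfibril collagen VI, had 3 and 4 counts in the libraries labelled negative and 332 and 552 in those labelled TEB-distal. Col14a1, which decorates fibrils, was at 6.38 and 16.8 against 45.4 and 74.4 CPM, and Col1a2, of collagen I, at 2.36 and 3.27 against 13.2 and 28.2 CPM. Col4a1 and Col4a2, the common pair of basement membrane collagen IV, were at 232 and 162 against 859 and 1969.7 CPM and at 142 and 129 against 353 and 1099.6 CPM, with log2 differences of 2.84 (SE 1.13) and 2.42 (SE 1.09). The 2 genes are neighbours (chr8:11198423-11312826 and chr8:11312805-11449287) and their exons overlap at the edge, so a share of reads could belong to either. Col7a1, the anchoring fibril collagen, was at 52.5 and 4.39 against 78.5 and 315 CPM, with the libraries labelled negative more than 10 times apart. Lama4, a laminin chain of vessel and muscle basement membranes, had 11.1 and 73.4 against 12.8 and 14.4 CPM and overlapped.

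Fn1, fibronectin, was at 33.6 and 12 against 175 and 181 CPM (log2 difference 2.97, SE 1.02), with close replicates in the libraries labelled TEB-distal. Fbln2, a fibulin of basement membranes, was at 7.28 and 24.9 against 42.1 and 129 CPM, and Eln, elastin, at 8.36 and 3.76 against 10.8 and 72.3 CPM. Fbln5, which assembles elastic fibres, was the 1 lower member, at 14.7 and 42 against 0.0812 and 10.3 CPM. Of 18 tested matrix proteases and inhibitors 2 were higher and 2 lower (median -0.14), close to the shares of all genes. Plat, tissue plasminogen activator of endothelium and other cells, was at 430.2 and 399 against 58.5 and 54.8 CPM, with tight replicates in both groups (log2 difference -2.87, SE 1.00, DESeq2 adjusted p = 0.134). Mmp2, gelatinase A, was at 32.8 and 0.105 against 71.3 and 86.2 CPM, and Adamts4, an aggrecanase, at 10.5 and 71.2 against 8.56 and 5.85 CPM.

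**Figure D4:**
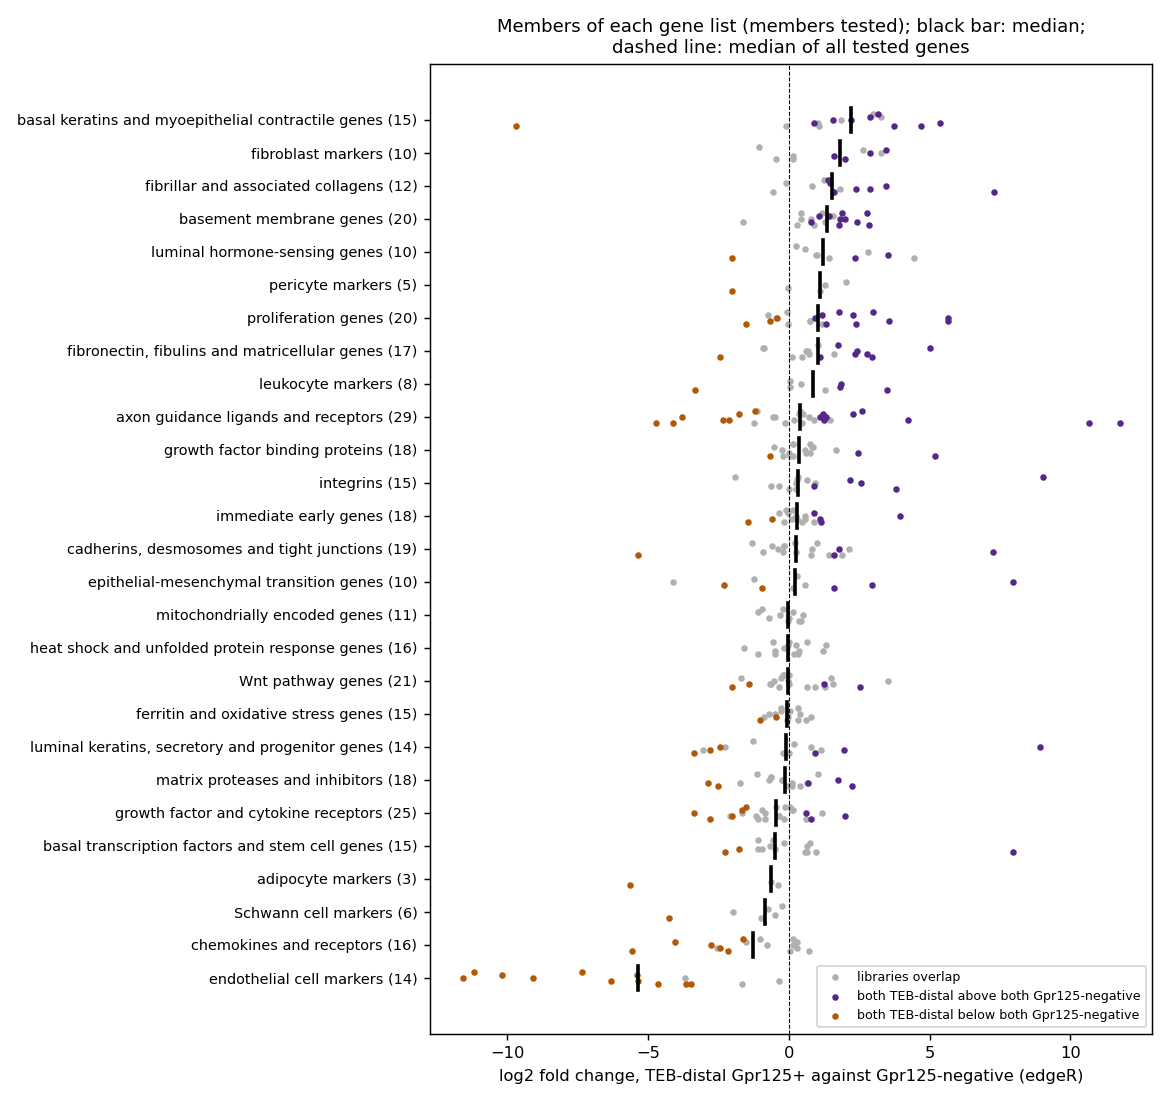
Each point is a tested member of a list, at its log2 fold change of the libraries labelled TEB-distal Gpr125+ against those labelled Gpr125-negative; black bars are list medians, the dashed line is the median of all tested genes, and purple and orange mark members whose libraries do not overlap. The endothelial list, with a median of -5.37, lies far to the left, and contractile, collagen and basement membrane lists lie to the right, with medians of 1.35 to 2.20.

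Adhesion genes were split by member. Of 15 tested integrins 4 were higher and none lower (26.7% higher, beside 11.5% of all tested genes, median 0.33). DESeq2 called Itga1 and Itgb6 higher, beside 1.9% of all tested genes. Itga1, the α1 chain that binds collagens and laminins, was at 0.966 and 2.32 against 23.5 and 22.1 CPM. Itgb6, the epithelial β6 chain, had 0 counts in both libraries labelled negative and 90 and 15 in those labelled TEB-distal. Itga7, a laminin receptor chain of muscle, was at 4.65 and 5.02 against 17.8 and 39.4 CPM. Of 19 tested cadherin, desmosome and tight junction genes 3 were higher and 1, Cdh5, lower (15.8% and 5.26%, median 0.26). Of all tested genes 7.52% were lower. Dsc2, a desmosomal cadherin, had 1 and 4 against 567 and 57 counts and was called by DESeq2, and Dsp, desmoplakin, was at 106 and 136 against 675 and 154 CPM. Cdh1, E-cadherin of epithelium, was at 41.2 and 74 against 258 and 47.8 CPM and overlapped. Dsc2, Dsp and Cdh1 were all highest in replicate 1 of the libraries labelled TEB-distal.

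Growth factor binding proteins and receptors are set beside all tested genes, of which 11.5% were higher and 7.52% lower. Of 18 tested binding proteins 2 were higher (11.1%), Igfbp2 and Htra1, and none lower. Their median was 0.37, between -0.21 and 1.20 with any 1 library left out. Htra1, a secreted serine protease, was at 15.2 and 6.43 against 34.2 and 85.6 CPM. Of 25 tested growth factor and cytokine receptors 1 was higher and 5 lower (4% and 20%, median -0.47), and DESeq2 called none. Tgfbr3, betaglycan, was at 90.9 and 62.7 against 27.2 and 21.6 CPM. Kit, the receptor of stem cell factor and a luminal progenitor marker, had 457 and 599 against 74 and 0 counts. Il4ra, the interleukin 4 receptor chain, was at 45.2 and 26.8 against 11 and 13.8 CPM. Of 21 tested Wnt pathway genes 2 were higher and 2 lower (median -0.05), and DESeq2 called none. Wnt6, a ligand, was at 2.67 and 0 against 2.76 and 12.8 CPM, and Fzd6, a receptor, at 23.6 and 10.9 against 3.57 and 9.43 CPM.

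Axon guidance genes held large differences in both directions. Of 29 tested ligands and receptors 9 were higher and 7 lower (31% and 24.1%, beside 11.5% and 7.52% of all tested genes, median 0.38), and DESeq2 called 3 higher and 2 lower, beside 1.9% and 1.13% of all tested genes. Beside Sema3e, Unc5c, a netrin receptor, had 0 counts in both libraries labelled negative and 182 and 152 in those labelled TEB-distal, with an overlapping transcript at its locus. Sema5a, a transmembrane semaphorin, had 1.84 and 0.141 against 22.8 and 15.1 CPM. Sema3a, a secreted semaphorin that signals through neuropilin 1, was in the other direction, at 14.3 and 92 against 2.03 and 4.04 CPM (log2 difference -4.13, SE 1.30). Without replicate 2 of the libraries labelled negative the difference was -2.23. Its relatives Sema3b, Sema3d and Sema3f were on the same side as Sema3a, so class 3 semaphorins stood on both sides.

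Epithelial-mesenchymal transition genes were 3 higher and 1 lower of 10 tested (30% and 10%, beside 11.5% and 7.52% of all tested genes, median 0.21). The 3 were Sox11, Fn1 and Cdh2, all of them members of other lists. Zeb1 and Zeb2, repressors of E-cadherin, were at 8.2 and 27.3 against 6.09 and 1.03 CPM and at 1.33 and 44 against 0.933 and 1.67 CPM, and Vim, vimentin, at 43.7 and 207 against 84.3 and 191 CPM with overlapping libraries. Of 16 tested chemokines and receptors 6 were lower and none higher (37.5% lower, beside 7.52% of all tested genes). Their median was -1.27, and -0.16 without replicate 2 of the libraries labelled negative. DESeq2 called 1 lower, Ccrl2, beside 1.13% of all tested genes. Ccrl2 had 138 and 251 against 6 and 0 counts. The monocyte attractants Ccl2 and Ccl7 were at 37.9 and 104 against 11 and 21.2 CPM and at 29.6 and 90.3 against 4.02 and 13.8 CPM, and Ccl11, eotaxin, at 2.2 and 36.6 against 1.34 and 0.993 CPM.

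The luminal keratins were measured in all 4 libraries of this basal gate. Krt8 and Krt18, the luminal keratin pair, were at 1051 and 428 against 1111 and 1728 CPM and at 919 and 175 against 498 and 446 CPM. The groups overlapped for Krt18 and were apart by less than 2-fold for Krt8. Of 14 tested luminal keratin, secretory and progenitor genes 2 were higher and 3 lower (14.3% and 21.4%, median -0.10). The shares of all tested genes were 11.5% and 7.52%. Csn2, the milk protein β-casein, had 0 counts in both libraries labelled negative and 63 and 37 in those labelled TEB-distal. Cd14, a lipopolysaccharide co-receptor of luminal progenitors, was at 58.5 and 17.6 against 7.02 and 4.01 CPM, and Trf, transferrin, at 227 and 215 against 72.9 and 8.37 CPM. Of 10 tested hormone-sensing genes 2 were higher and 1 lower (20% and 10%, median 1.23). Prom1, a marker of hormone-sensing cells, was at 3.57 and 1.16 against 48.3 and 6.06 CPM, and Cited1, a co-activator of the estrogen receptor, at 9.1 and 1.76 against 15 and 41 CPM. Esr1, the estrogen receptor itself, had 66 and 1 counts against 819 and 2, so that replicate 1 of each group held nearly all of it. Without replicate 1 labelled TEB-distal the median of the hormone-sensing list was -0.24.

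Proliferation genes were more often higher than lower, as were all tested genes. Of 20 tested 9 were higher and 1 lower (45% and 5%, beside 11.5% and 7.52% of all tested genes). The median was 1.05, between 0.73 and 2.50 with any 1 library left out. DESeq2 called 2 higher, Top2a and Ccna2, beside 1.9% of all tested genes. Top2a, topoisomerase IIα, had 7 and 9 counts in the libraries labelled negative and 341 and 283 in those labelled TEB-distal. Ccna2, cyclin A2, had 5 and 2 against 36 and 231 counts, and Cdk1, the mitotic kinase, 43 and 137 against 223 and 541. Mcm5, of the replicative helicase, was at 4.9 and 1.26 against 14.6 and 58 CPM. Mki67, which encodes Ki67, had 199 and 1 against 316 and 308 counts, so replicate 1 held nearly all of it in the libraries labelled negative. Plk1, another mitotic kinase, was the lower member, at 5.93 and 12.7 against 1.99 and 4.54 CPM. Summed over the list the groups overlapped, with 260.2 and 437 against 373 and 359 CPM.

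Among genes read for dissociation stress and RNA quality, summed heat shock and mitochondrially encoded genes differed more between libraries than between groups. Of 18 tested immediate early genes 3 were higher and 1 lower (16.7% and 5.56%, beside 11.5% and 7.52% of all tested genes, median 0.28). Fos was at 480.0 and 239.8 against 134 and 131 CPM and Egr1 at 231 and 177 against 529 and 371 CPM, in opposite directions. Of 16 heat shock and unfolded protein response genes none was apart in either direction (median -0.02), while their summed level ranged from 12230 to 91790 CPM, both in libraries labelled negative. Of 15 ferritin and oxidative stress genes 1, Fth1, was lower (median -0.08). Of 11 mitochondrially encoded genes none was apart (median -0.02), with summed levels of 2138 and 27300 against 27800 and 6383 CPM. The part of these differences between libraries in the gene lists above was not tested.

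The most abundant transcripts were alike in kind. Per kilobase of exon, the 10 highest genes of each group shared 8, and the ferritin chains Fth1 and Ftl1, heme oxygenase Hmox1 and the small heat shock protein Hspb1 were among them in both. Slpi, a secreted inhibitor of leukocyte proteases, led the libraries labelled negative, at 13750 and 4579 CPM per kilobase against 1123 and 3057. Hspb1 led those labelled TEB-distal, at 4267 and 18470 CPM per kilobase against 4095 and 5745. Krt17, a basal keratin also induced by stress, was among the 10 of the libraries labelled TEB-distal alone, at 560.3 and 4005 CPM per kilobase against 457 and 803, most of it in replicate 2. The libraries of the groups overlapped for Hspb1 and Krt17 and not for Slpi.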

How the data were processed

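RNA was sequenced from 4 pools of sorted mammary cells, 2 labelled TEB-distal Gpr125+ and 2 labelled Gpr125-negative. Libraries were made by SMART-Seq HT. Reads were mapped by the authors with STAR to the mm10 genome (2.7.3 in the submitters' processing notes, another version in the methods). HTSeq counted them by gene, ignoring strand, and raw counts were deposited, with no normalization. The methods link an Ensembl release of the genome, and the release of the annotation is not given in the sources used here. The design text gives 5 mice per pool and the methods a smaller number. Gene positions, exon lengths and overlaps came from GENCODE M21 (GRCm38), which held 53186 of the 55291 symbols once. Promoter windows came from RefSeq.

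Counts were fitted with edgeR 4.0.16 in R 4.3.3 (TMM, filterByExpr, robust quasi-likelihood test, Benjamini-Hochberg adjustment over all tested genes), with a call at an adjusted p under 0.1 and 2-fold. DESeq2 1.42.0 was an alternative, as were other filters, normalization, tests, a replicate block, all 6 libraries and leaving out each library. Normalized CPM used TMM library sizes. Fold bounds used 3 counts per library, and ratios exact binomial intervals (95%). Both tools were tested on simulated counts that gave every gene the common dispersion of these libraries. Each recovered the median folds set, edgeR made no call, and most DESeq2 calls fell on genes that had not been changed.

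Genes named were Adgra3 and those of the sort, the 15 of smallest p without overlap in each direction with at least 100 counts in each library of the higher group, the 8 near-absent genes of highest CPM, the 10 highest per kilobase, and up to 4 members of each list by p with members that sit against their list. Predicted and unnamed models were left out, and some results are not reported here. Myh11, Thbs2, Rgs5, Cd3e, Mki67, Krt8, Krt18, Col1a1, Col3a1, Cdh2, Sema3b, Sema3d and Sema3f were named after their values were seen. The 28 gene lists and the members were chosen with earlier results of these data known. Some lists share members. List medians were the same with near-absent members at their fold bound. Without strand, reads of overlapping exons cannot be told apart. Such overlaps involve, beside those in the text, Adamts4, Ccna2, Col3a1, Col7a1, Dsp, Eln, Fn1, Ftl1, Fzd6, Il4ra, Itga1, Itga7, Krt5, Krt8, Lck, Plk1, Prom1, Slpi, Tgfbr3, Top2a, Trf, Zeb1 and Zeb2.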

Additional observations from a re-analysis of the deposited data

How the results depend on the processing

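No gene was called with DESeq2's size factors, without robust estimation, at 1 CPM or more in 2 libraries, with all 6 libraries in the fit, or at an adjusted p under 0.05. The number called was 49 (8 higher, 41 lower) when genes with at least 1 count were kept, 76 (21 and 55) with edgeR's likelihood ratio test and 667 with DESeq2, and each of the 49 and of the 76 was also a DESeq2 call. Genes whose libraries do not overlap numbered 1842 at 4-fold in place of 3067 at 2-fold, and near-absent genes 202 at limits of 50 and 10 counts in place of 51. The leukocyte median was 1.28 and the fibroblast median 0.90 at 1 CPM or more. The pericyte and Schwann cell medians were -0.15 and -1.73 with DESeq2 and -0.05 and -1.98 with genes of at least 1 count, and the pericyte median 0.53 with all 6 libraries. Same-numbered libraries did not deviate together (correlation across genes -0.0354), so the numbers were not taken as pairs. With the replicate block, 10 genes were called (1 higher, 9 lower), medians were 2.35 for fibrillar collagens, 2.43 for fibroblast markers, 2.16 for hormone-sensing genes, 0.38 for Wnt genes and -6.70 for endothelial markers, Krt18 turned to 0.23, and the median of all tested genes was 0.19 in place of 0.02. The cause was not tested.

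Leaving out each library in turn, 0 to 547 genes were called, with the lone library assumed to vary like the others. With 1 library in place of 2 to satisfy the criteria, 241 to 672 genes were near absent in one group and 5996 to 7882 did not overlap. The median of all tested genes was then -0.22 to 0.41. Adgra3 stayed lower, at -2.56 to -0.86. Medians ranged as follows: basal keratins and myoepithelial contractile genes 0.85 to 2.91, basal transcription factors and stem cell genes -0.66 to 0.13, luminal hormone-sensing genes -0.24 to 5.17, luminal keratins, secretory and progenitor genes -0.96 to 2.00, fibrillar and associated collagens 1.30 to 2.18, fibronectin, fibulins and matricellular genes 0.69 to 2.31, matrix proteases and inhibitors -0.47 to 0.34, integrins 0.37 to 0.92, cadherins, desmosomes and tight junctions -0.36 to 1.52, growth factor and cytokine receptors -1.16 to 0.17, Wnt pathway genes -0.14 to 0.51, axon guidance ligands and receptors -0.45 to 0.59, epithelial-mesenchymal transition genes -0.40 to 1.58, chemokines and receptors -1.89 to -0.16, proliferation genes 0.73 to 2.50, immediate early genes -0.33 to 0.50, heat shock and unfolded protein response genes -0.75 to 2.12, ferritin and oxidative stress genes -0.50 to 0.13, mitochondrially encoded genes -1.60 to 2.60, pericyte markers -1.03 to 2.18, fibroblast markers -0.11 to 4.62, leukocyte markers 0.18 to 1.14, adipocyte markers -1.56 to -0.11, growth factor binding proteins -0.21 to 1.20, Schwann cell markers -3.16 to 0.20. The log2 difference ranged for Sox11 from 7.02 to 13.77, Actg2 2.98 to 6.33, Myl9 3.50 to 5.30, Igfbp2 4.08 to 5.71, Fn1 2.41 to 3.83, Col4a1 2.12 to 3.24, Col4a2 1.38 to 2.94, Sema3a -4.99 to -2.23, Emcn -11.79 to -10.74, Fabp4 -6.19 to -5.31 and Procr -1.95 to -1.64. Among named genes whose direction turned, the log2 difference ranged as follows: Cd24a -2.39 to 1.13, Cdh1 -0.36 to 2.16, Esr1 -3.41 to 8.72, Ftl1 -0.18 to 1.37, Hspb1 -0.21 to 1.82, Itgb1 -0.37 to 1.23, Kdr -5.19 to 2.77, Krt14 -0.73 to 1.73, Krt17 -0.17 to 2.58, Krt18 -0.96 to 1.38, Krt5 -1.22 to 1.13, Lama4 -2.49 to 0.29, Ptprc -0.25 to 1.99, Vim -0.67 to 1.65, Vwf -4.67 to 6.13. Depth limits genes at or under the floor of 3 counts, whose differences are given as bounds or with counting intervals.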
